A study of Mus musculus with 12 samples.

Results

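Liver RNA of mice on a high-fat diet that held MSX, a phenol-enriched extract of maple syrup, was set against liver RNA of mice on a plain low-fat diet. The comparison took 6 of the 12 arrays of the series, chosen by their labels alone. The high-fat MSX group (3 arrays) ate a diet with 45% of energy from fat and 0.5% extract by weight. The low-fat control group (3 arrays) ate a diet with 10% of energy from fat and no extract. All mice were male C57BL6 animals fed freely for 12 weeks, from 6 to 18 weeks of age, and the labels give each group 3 biological replicates. The other groups, high-fat control and low-fat MSX with 3 arrays each, are used to place the differences. Their arrays also enter the fit on all 12 arrays, which gives the spread behind each standard error, interval and p-value. Diet and extract both differ between the compared groups, so that this comparison alone cannot tell their parts apart.

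Hepatocytes make cholesterol from acetyl-CoA through the mevalonate and sterol enzymes, whose genes are switched on by SREBP-2 when membrane sterol is low and held back by INSIG proteins when it is high. They burn fatty acids in mitochondria and peroxisomes under the control of PPAR alpha, a receptor for fatty acids that is most active in fasting. Surplus fatty acids are stored as triglyceride in droplets coated by perilipins, and a high-fat diet is known to enlarge these stores.

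Values are the deposited log2 values, with array medians between 4.68 and 4.75, and all differences are differences of group means on that scale. Hepatocyte markers were high in both groups: Alb, serum albumin, lay between 13.91 and 13.93 in the low-fat controls and between 13.89 and 13.95 in high-fat MSX. The 10 markers had a median log2 difference of 0.02, from −0.25 (Cps1) to 0.14 (Ttr), and 0 passed the threshold. In high-fat MSX 2 of them lay above and 2 below all low-fat controls. That is 40.0% of the list, against 13.2% of all genes. The 9 lists of markers of other cell types, pancreatic acinar cells and adipocytes among them, held 0 genes past the threshold. Their median log2 differences ran from −0.08 (2 erythroid markers) to 0.27 (7 acinar markers). The share of markers that did not overlap ran from 0.0% (acinar and erythroid) to 33.3% (adipocyte and neutrophil), against 13.2% of all genes. Values of these lists are given below. Correlations between an array of one group and an array of the other were between 0.973 and 0.982, and those within the groups between 0.973 and 0.982.

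Of 22180 genes with 1 platform symbol, 16 passed an adjusted p of 0.05 (limma, Benjamini-Hochberg adjustment over all genes), which is 0.0721% of those tested. Of these, 9 were higher in high-fat MSX (0.0406%) and 7 lower (0.0316%), by 1.76-fold to 3.8-fold. The genes that rose were Sqle, Msmo1, Nsdhl and Cyp51 of cholesterol synthesis, the sterol sensor gene Insig1, the sorting receptor gene Sort1, Aox3, F11 and Bhlhe41. Those that fell were Acot1, Cgref1, Abhd2, Slc27a1, Lamb3, the microRNA gene Mir1946b and Gm16157, which the gene table lists as a long non-coding RNA. The median difference over all genes was 0.0001, and 95% of genes lay between −0.41 and 0.42. Without the threshold on p, 1829 genes (8.25%) had an unadjusted p under 0.05, and 61 genes differed by at least 1 on the log2 scale.

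**Figure D1:**
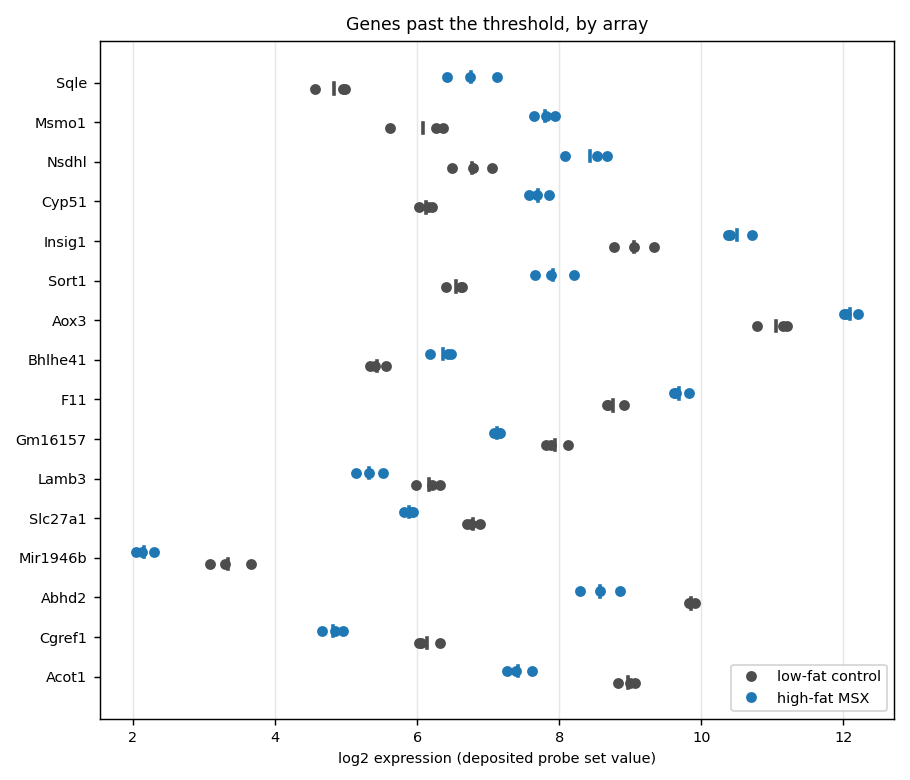
Deposited log2 values (horizontal axis) of the 16 genes past the threshold, with 1 point per array for low-fat control (grey) and high-fat MSX (blue) and a bar at each group mean. The groups of 3 do not overlap for any of the 16, from Sqle, higher by 1.93, to Acot1, lower by 1.54.

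The count rested on all 6 arrays. Leaving out low-fat control replicate 1, 2 or 3 gave 8, 4 or 5 genes, and leaving out high-fat MSX replicate 1, 2 or 3 gave 5, 3 or 3. Cyp51, Sqle and Acot1 passed in each of those 6 cases, and 6 of the 16 genes (Aox3, Bhlhe41, Cgref1, F11, Lamb3 and Nsdhl) passed in none of these cases.

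The sterol genes gave most of the genes that rose. Cyp51, the sterol 14-demethylase, lay at 6.15, 6.21 and 6.02 in the low-fat controls and at 7.85, 7.69 and 7.58 in high-fat MSX. The difference of 1.58 (SE 0.12, adjusted p = 8.03e-05) was the one with the lowest p of all genes. Sqle, squalene epoxidase, lay at 4.95, 4.99 and 4.56 in the low-fat controls and at 7.13, 6.42 and 6.74 in high-fat MSX, and rose by 1.93 (SE 0.21, adjusted p = 0.00389). Both genes were separated from the low-fat controls by more than the whole range within either group.

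Msmo1, the methylsterol oxidase that acts after Cyp51, lay at 6.27, 6.37 and 5.62 in the low-fat controls and at 7.94, 7.81 and 7.65 in high-fat MSX (difference 1.71, SE 0.23, adjusted p = 0.0132). Nsdhl, the sterol dehydrogenase of the next step, lay at 6.79, 6.49 and 7.05 in the low-fat controls and at 8.67, 8.53 and 8.08 in high-fat MSX (1.65, SE 0.25, adjusted p = 0.031). Insig1 encodes the protein that retains the SREBP complex in the endoplasmic reticulum and is itself a known SREBP target. It lay at 9.33, 8.77 and 9.05 in the low-fat controls and at 10.71, 10.40 and 10.38 in high-fat MSX (1.45, SE 0.20, adjusted p = 0.0135).

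Of 16 measured enzymes of cholesterol synthesis, 4 rose, 0 fell, and 15 had a difference above 0, with a median of 0.56 against 0.0001 over all genes. The high-fat MSX arrays lay above all low-fat controls for 12 of the 16 (75%), where 7.06% of all genes did so. Fdps, farnesyl diphosphate synthase, had a difference of 1.25 (adjusted p = 0.0757) and Hmgcs1, the cytosolic HMG-CoA synthase, one of 1.19 (adjusted p = 0.0593). The lowest value was that of Ebp, sterol isomerase, at −0.03.

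**Figure D2:**
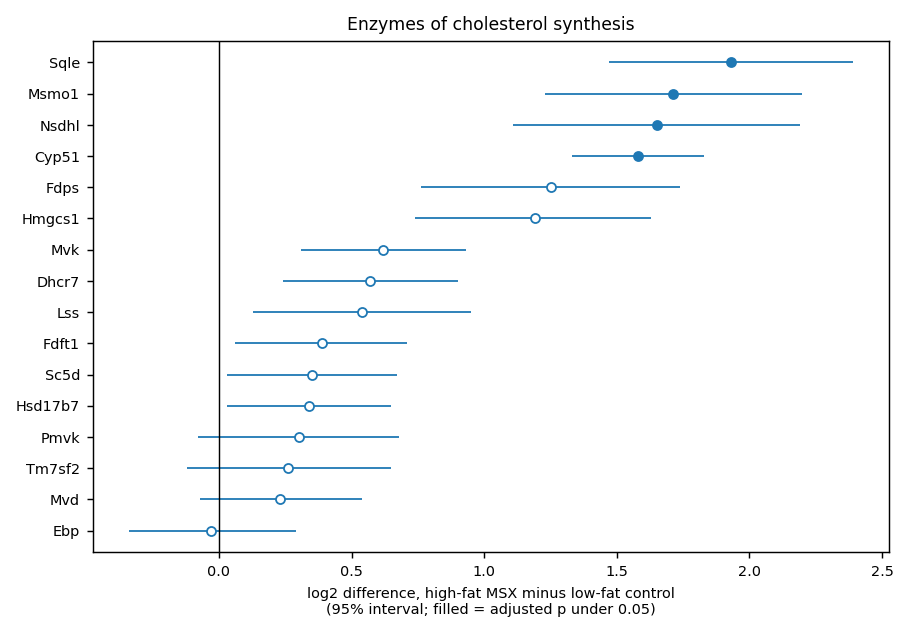
Log2 difference of high-fat MSX from low-fat control (points) with its unadjusted 95% interval (lines) for the 16 measured enzymes of cholesterol synthesis, filled where the adjusted p is under 0.05. The 4 filled points are Sqle, Msmo1, Nsdhl and Cyp51, and Ebp at −0.03 is the single point below 0.

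Among the 10 measured genes of sterol sensing and LDL uptake, Insig1 rose and 0 fell, and the median was 0.14. The high-fat MSX arrays lay above all low-fat controls for 2 of the 10 and below them for 0. Over all genes these shares were 7.06% and 6.18%. Stard4, a cholesterol transfer protein, lay at 6.72, 6.51 and 6.87 in the low-fat controls and at 8.08, 7.71 and 7.53 in high-fat MSX (1.08, SE 0.18, adjusted p = 0.0534). The transcription factors themselves differed little: Srebf2 had a difference of 0.20 (adjusted p = 0.761) and Srebf1 one of 0.27 (adjusted p = 0.775). Insig2, the other INSIG gene, had a difference of −0.37 (95% interval −0.79 to 0.04, adjusted p = 0.656).

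The start site windows of the sterol genes are shown because these genes differed in the same direction. Each runs from 250 bases before to 50 bases after the start site, 300 bases in all, from RefSeq (GRCm38.p6), for 3 of the 4 called enzymes, Insig1 and Hmgcs1. Capitals mark the letters TCACNCCAC (a form of the sterol regulatory element), CCAAT (the box bound by NF-Y) and CACGTG (the E-box), searched on both strands. The windows lie at chr5:4104648-4104947 (minus strand), chr8:64733529-64733828 (minus strand), chr5:28071162-28071461 (plus strand), chrX:72918271-72918570 (plus strand) and chr13:119690101-119690400 (plus strand).
Cyp51: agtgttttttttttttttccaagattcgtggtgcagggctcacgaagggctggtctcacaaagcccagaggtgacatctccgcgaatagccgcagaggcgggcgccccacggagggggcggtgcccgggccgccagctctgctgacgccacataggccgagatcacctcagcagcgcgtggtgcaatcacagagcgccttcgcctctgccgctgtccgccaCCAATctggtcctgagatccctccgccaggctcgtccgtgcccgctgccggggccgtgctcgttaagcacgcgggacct
Msmo1: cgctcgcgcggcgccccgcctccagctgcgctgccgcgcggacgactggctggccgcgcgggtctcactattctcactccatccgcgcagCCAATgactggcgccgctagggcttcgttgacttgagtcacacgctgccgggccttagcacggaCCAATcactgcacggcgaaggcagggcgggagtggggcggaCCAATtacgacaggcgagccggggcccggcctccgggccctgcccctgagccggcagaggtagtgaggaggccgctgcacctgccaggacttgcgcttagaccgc
Insig1: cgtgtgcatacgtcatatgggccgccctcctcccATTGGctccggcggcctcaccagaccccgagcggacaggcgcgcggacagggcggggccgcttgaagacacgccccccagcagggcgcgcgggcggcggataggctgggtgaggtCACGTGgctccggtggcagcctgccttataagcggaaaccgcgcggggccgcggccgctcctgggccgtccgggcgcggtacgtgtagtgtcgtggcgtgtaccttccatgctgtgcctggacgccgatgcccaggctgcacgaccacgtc
Nsdhl: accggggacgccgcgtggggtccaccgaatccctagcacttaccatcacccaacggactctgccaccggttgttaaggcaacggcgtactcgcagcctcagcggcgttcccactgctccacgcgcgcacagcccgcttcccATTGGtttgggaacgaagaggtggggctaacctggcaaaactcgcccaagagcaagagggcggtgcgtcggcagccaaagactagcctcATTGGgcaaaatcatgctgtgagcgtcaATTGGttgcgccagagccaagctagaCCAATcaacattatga
Hmgcs1: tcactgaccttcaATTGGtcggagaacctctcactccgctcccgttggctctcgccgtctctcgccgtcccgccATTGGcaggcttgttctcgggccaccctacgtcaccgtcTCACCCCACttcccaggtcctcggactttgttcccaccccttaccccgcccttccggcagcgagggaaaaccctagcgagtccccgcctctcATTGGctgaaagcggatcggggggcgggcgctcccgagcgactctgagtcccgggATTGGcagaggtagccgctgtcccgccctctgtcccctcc
CCAAT was present in all 5 of these windows, against 37.4% of the 32851 windows in the RefSeq table. TCACNCCAC was present in 1, that of Hmgcs1 (1.24% of all windows), and CACGTG in 1, that of Insig1 (7.15% of all windows). Hmgcs1 itself did not pass the threshold, so that no called gene among the 5 held TCACNCCAC. Other forms of the sterol regulatory element were not searched, so these windows may hold forms that are not marked. No window was at hand for Sqle, and those of Fdps and Stard4, also short of the threshold, are not shown. A match is a string of letters, not a measured site, and the 5 genes were chosen for their differences.

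The 5 sterol genes past the threshold also had higher means in both of the other groups than in the low-fat control. These comparisons share the low-fat control arrays, so their values are set side by side and not counted as separate evidence. Against the low-fat control, Sqle differed by 1.93 in high-fat MSX, by 1.88 in high-fat control and by 1.39 in low-fat MSX. Cyp51 differed by 1.58, 1.29 and 1.11 in the same order, and Msmo1 by 1.71, 1.53 and 1.17. High-fat MSX and high-fat control lay close for these genes: the difference between them was 0.05 for Sqle (95% interval −0.41 to 0.51), 0.28 for Cyp51 (0.03 to 0.53) and 0.18 for Msmo1 (−0.31 to 0.66).

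**Figure D3:**
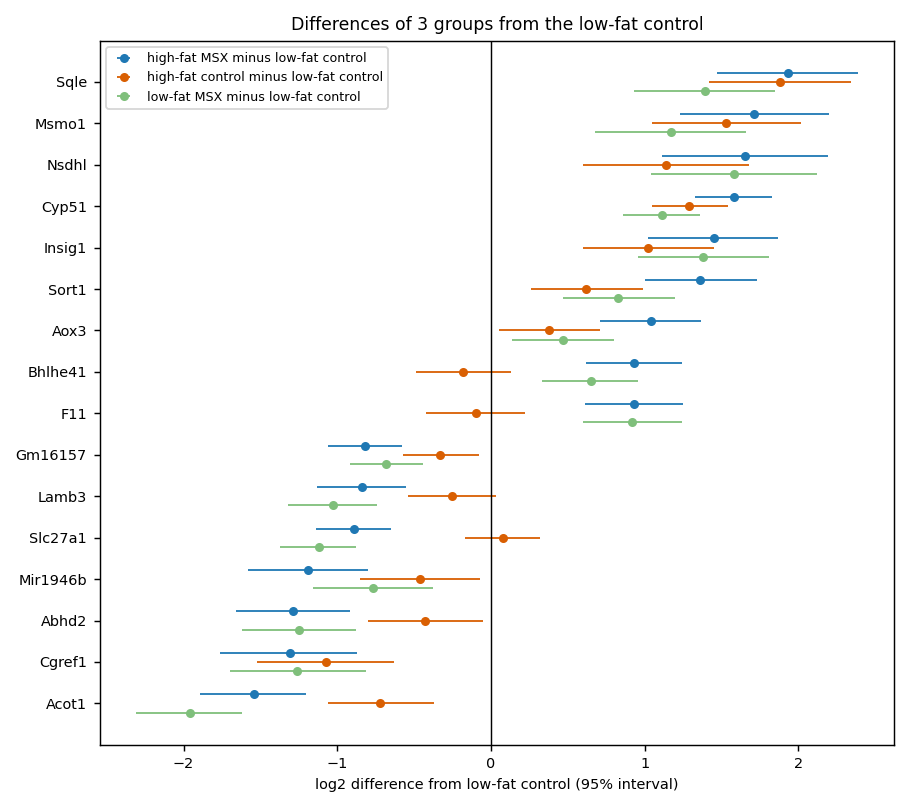
Log2 difference from low-fat control (horizontal axis, points with unadjusted 95% intervals) of the 16 genes past the threshold, for high-fat MSX (blue), high-fat control (orange) and low-fat MSX (green). Sqle, Msmo1, Nsdhl, Cyp51 and Insig1 lie above 0 in all 3 groups, while F11, Bhlhe41 and Slc27a1 lie between −0.18 and 0.08 in high-fat control.

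The remaining genes that rose belong to several processes. Sort1 encodes sortilin, a receptor that sorts proteins between the Golgi and lysosomes and is known for its part in lipoprotein secretion. It lay at 6.63, 6.41 and 6.62 in the low-fat controls and at 7.66, 8.21 and 7.88 in high-fat MSX (1.36, SE 0.17, adjusted p = 0.0107). Its other, dimmer probe set had a difference of −0.26, and with the mean of both probe sets the difference was 0.55 and did not pass (adjusted p = 0.218). Aox3, an aldehyde oxidase of mouse liver, lay at 11.20, 10.79 and 11.15 in the low-fat controls and at 12.04, 12.21 and 12.01 in high-fat MSX (1.04, SE 0.15, adjusted p = 0.0261). In the high-fat control Aox3 differed from the low-fat control by 0.38 and in low-fat MSX by 0.47.

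F11, coagulation factor XI, lay at 8.91, 8.67 and 8.69 in the low-fat controls and at 9.61, 9.82 and 9.64 in high-fat MSX (0.93, SE 0.15, adjusted p = 0.036). The plain high-fat diet left F11 at 8.47, 8.66 and 8.84, within the range of or below the low-fat controls. Among the 16 measured coagulation genes F11 was the only one past the threshold, and the other 15 had differences between −0.12 (F10) and 0.24 (F8), with a list median of 0.10. For 7 of the 16 the high-fat MSX arrays lay above all low-fat controls, where 7.06% of all genes did so. A difference above 0 was found for 12 of the 16. Bhlhe41, a repressor in the circadian clock, lay at 5.41, 5.33 and 5.56 in the low-fat controls and at 6.48, 6.43 and 6.18 in high-fat MSX (0.93, SE 0.15, adjusted p = 0.0358). In the high-fat controls it lay at 5.39, 5.22 and 5.15.

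Of 19 measured genes of the clock and its outputs, Bhlhe41 rose and 0 fell, with a list median of 0.03. Over all genes 0.0721% passed. The high-fat MSX arrays lay above all low-fat controls for 4 of the 19 and below them for 2. Over all genes these shares were 7.06% and 6.18%. Bhlhe40, the paralog of Bhlhe41, had a difference of 0.69 (adjusted p = 0.123) with no overlap between the groups. Nr1d1, the clock repressor REV-ERB alpha, had a difference of 1.08 (adjusted p = 0.537) with low-fat controls at 8.02, 8.02 and 9.28 and high-fat MSX at 9.39, 9.86 and 9.32. The core activators Clock (−0.00) and Npas2 (−0.02) lay at nearly the same level in both groups. The hour at which livers were taken is not given in the sources used here.

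Acot1 led the genes that fell. It encodes a cytosolic acyl-CoA thioesterase, a known PPAR alpha target that releases fatty acids from coenzyme A. Acot1 lay between 8.83 and 9.06 in the 3 low-fat controls and at 7.39, 7.61 and 7.27 in high-fat MSX (difference −1.54, SE 0.16, adjusted p = 0.00252). In the high-fat controls it lay between these, at 7.92, 8.25 and 8.58. Its paralogs, which lie beside it in the genome and are similar in sequence, had differences of −1.04 for Acot2 (adjusted p = 0.222), −1.35 for Acot3 (adjusted p = 0.429) and −0.53 for Acot4 (adjusted p = 0.407). Signal shared between the 4 probe sets through like sequences was not tested.

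Of 29 measured genes that burn fatty acids or are PPAR alpha targets, Acot1 fell and 0 rose, and 25 had a difference below 0. The median was −0.22, and the high-fat MSX arrays lay below all low-fat controls for 16 of the 29, where 6.18% of all genes did so and 13.2% were separate in either direction. The same list had a median of −0.47 in low-fat MSX against the low-fat control. Besides the thioesterases, Fgf21, a hormone of fasting, lay at 7.49, 7.04 and 8.06 in the low-fat controls and at 6.58, 6.30 and 6.65 in high-fat MSX (−1.02, adjusted p = 0.285). Pdk4, which holds back pyruvate dehydrogenase, had a difference of −0.95 (adjusted p = 0.281), and the omega hydroxylases Cyp4a14 and Cyp4a31 had −1.01 (adjusted p = 0.326) and −0.83 (adjusted p = 0.115). Among the mitochondrial enzymes, Cpt1a, which controls fatty acid entry, had a difference of −0.46 (adjusted p = 0.267). The acyl-CoA dehydrogenases Acadm, Acadl and Acadvl had −0.23, −0.21 and −0.11. Cpt2 (−0.05), Acaa2 (−0.00) and Hadhb (0.00) differed by 0.05 or less, and so did Ppara itself (−0.00, 95% interval −0.26 to 0.26).

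**Figure D4:**
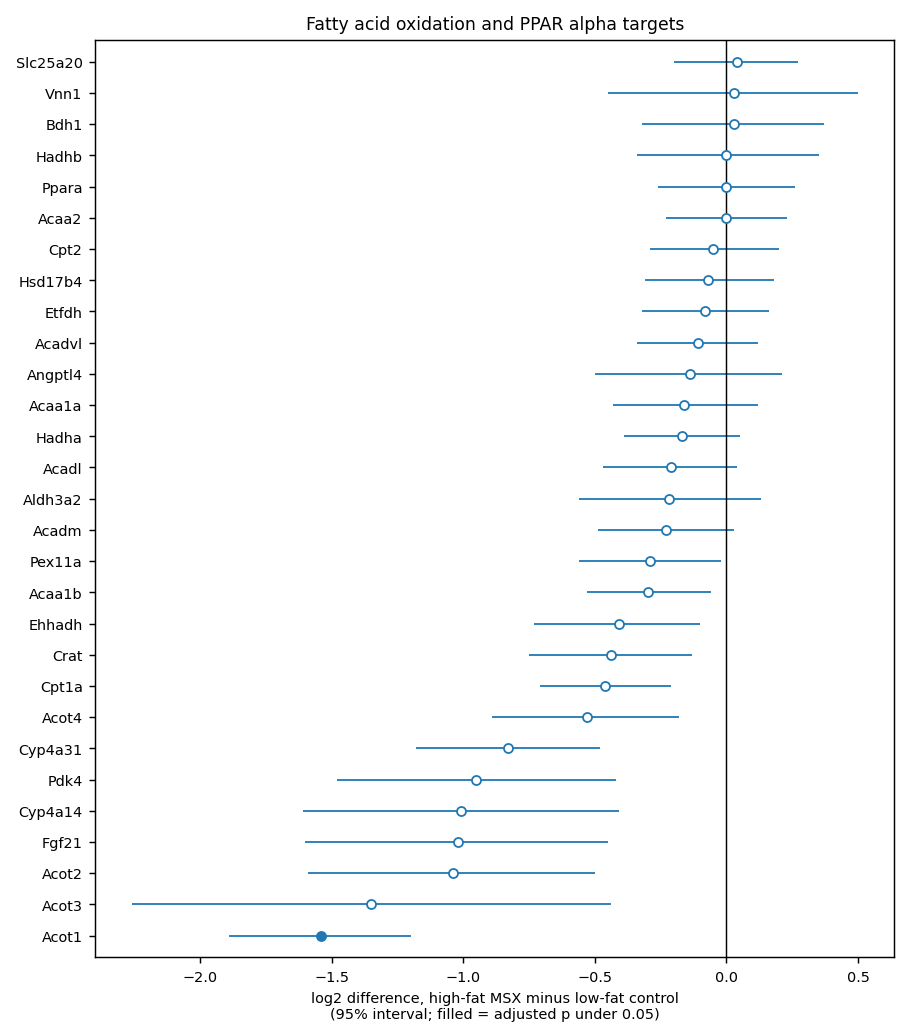
Log2 difference of high-fat MSX from low-fat control (points) with its unadjusted 95% interval (lines) for 29 genes that burn fatty acids or are PPAR alpha targets, filled where the adjusted p is under 0.05. Acot1 at −1.54 is the single filled point, and the values run up to 0.04 for Slc25a20.

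Slc27a1, a fatty acid transport protein, lay at 6.70, 6.88 and 6.76 in the low-fat controls and at 5.82, 5.91 and 5.94 in high-fat MSX (−0.89, SE 0.11, adjusted p = 0.0116). On the plain high-fat diet it lay at 6.72, 7.04 and 6.81, close to the low-fat controls. Of the 13 measured genes of fatty acid uptake and binding, Slc27a1 fell and 0 rose, with a list median of −0.00. The high-fat MSX arrays lay below all low-fat controls for 4 of the 13 and above them for 2. Over all genes these shares were 6.18% and 7.06%. Fabp2, a fatty acid binding protein, had a difference of −0.66 (adjusted p = 0.353), and Fabp1, the abundant liver form, one of 0.08 (95% interval −0.14 to 0.31).

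Of 25 measured genes of droplets and triglyceride synthesis, 0 passed the threshold, 18 had a difference below 0 and 7 one above 0, with a median of −0.16. For 8 of the 25 the high-fat MSX arrays lay below all low-fat controls, against 6.18% of all genes. Plin4, a droplet coat protein, lay at 7.11, 7.05 and 7.10 in the low-fat controls, at 8.21, 8.47 and 7.80 in the high-fat controls and at 6.00, 6.02 and 6.15 in high-fat MSX. Its difference from the low-fat control was −1.03 (95% interval −1.40 to −0.65, adjusted p = 0.0534), so that high-fat MSX lay on the opposite side of the low-fat control from the plain high-fat diet in every array. Cidec, a droplet fusion protein, lay at 7.63, 7.17 and 7.46 in the low-fat controls and at 5.44, 5.75 and 5.52 in high-fat MSX (−1.85, adjusted p = 0.207). G0s2, an inhibitor of lipolysis, had a difference of −0.83 (adjusted p = 0.0757), with −0.30 from its other probe set, and Plin5, a coat protein of oxidative tissues, had −0.80 (adjusted p = 0.218).

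Other droplet genes lay near the low-fat control. Plin2, the main coat protein of liver droplets, had a difference of −0.16 (95% interval −0.59 to 0.26), and Pparg, a regulator of lipid storage, one of −0.26 (95% interval −0.68 to 0.15). Cidea had a difference of −0.05. Dgat1 and Dgat2, which make triglyceride, had −0.10 and 0.17. In the high-fat control Pparg differed from the low-fat control by 0.85 and Cidea by 1.17, the last carried by high-fat control replicate 1 at 7.86 beside 4.58 and 4.36.

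The further genes that fell belong to none of the lists. Abhd2, a serine hydrolase of lipids, lay at 9.84, 9.91 and 9.83 in the low-fat controls and at 8.85, 8.29 and 8.57 in high-fat MSX (−1.29, SE 0.17, adjusted p = 0.0132). Cgref1, a secreted calcium-binding protein, lay at 6.32, 6.06 and 6.02 in the low-fat controls and at 4.95, 4.66 and 4.85 in high-fat MSX (−1.31, SE 0.21, adjusted p = 0.0358). Lamb3, a laminin chain of epithelial basement membranes, lay at 6.32, 5.98 and 6.21 in the low-fat controls and at 5.52, 5.14 and 5.32 in high-fat MSX (−0.84, SE 0.13, adjusted p = 0.036). Abhd2, Cgref1 and Lamb3 also had lower means in low-fat MSX, with differences of −1.25, −1.26 and −1.03 from the low-fat control. Cgref1 differed by −1.07 in the high-fat control as well, where Abhd2 and Lamb3 differed by −0.43 and −0.25. Gm16157, at 7.88, 8.12 and 7.82 in the low-fat controls and at 7.16, 7.08 and 7.15 in high-fat MSX, had a difference of −0.82 (SE 0.11, adjusted p = 0.0135).

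The probe set of Mir1946b is shown with its mature sequence because it was the one microRNA gene past the threshold. It lay at 3.08, 3.66 and 3.29 in the low-fat controls and at 2.30, 2.04 and 2.12 in high-fat MSX (−1.19, SE 0.18, adjusted p = 0.031), all below the array medians. The mature form (RefSeq, chr9:21613452-21613477, minus strand, GRCm38.p6) has 26 bases, with the seed, bases 2 to 8, in capitals. Whether the probe set measures the mature form was not tested, and neither was the part of background signal at this dim level. Mir1946b and Gm16157 fell outside the rule for named genes and were added after their values were seen.
mmu-miR-1946b: gCCGGGCAgugguggcacaugcuuuu

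On the plain high-fat diet 4 of 22180 genes (0.018%) passed the threshold against the low-fat control: Cyp51, Sqle, Themis and Igfbp2. With the extract Cyp51 and Sqle were past the threshold too, with the values given above. Themis, known from T cell development, lay at 4.78, 5.44 and 4.68 in the low-fat controls, at 6.60, 6.46 and 6.31 in the high-fat controls and at 5.17, 4.82 and 4.98 in high-fat MSX. Its difference between high-fat MSX and low-fat control was 0.02 (95% interval −0.41 to 0.46, adjusted p = 0.99), and these groups overlapped. Its sign turned with the removal of single arrays, to −0.12 at the lowest, without low-fat control replicate 3. The T cell gene Cd3e had a difference of −0.14 between high-fat MSX and low-fat control.

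Igfbp2, which the liver secretes to bind insulin-like growth factors, lay between both control groups. It was at 10.91, 11.12 and 11.06 in the low-fat controls, at 9.74, 9.66 and 9.81 in the high-fat controls and at 10.13, 10.16 and 10.15 in high-fat MSX. All 3 groups were separate. The difference of high-fat MSX from low-fat control was −0.88 (95% interval −1.20 to −0.57, adjusted p = 0.051), against −1.29 for the high-fat control. Among the 13 measured genes of the IGF axis and growth hormone signalling 0 passed the threshold, and the median was −0.05. The high-fat MSX arrays lay above all low-fat controls for 1 of the 13 and below them for 1. Over all genes these shares were 7.06% and 6.18%. Igf1 had a difference of −0.25 (95% interval −0.59 to 0.08) and Ghr, the growth hormone receptor, one of 0.11.

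Against the high-fat control, 8 of 22180 genes (0.0361%) passed the threshold in high-fat MSX, and these took different places relative to the low-fat control. Themis lay among the low-fat controls. Slc27a1, F11 and Bhlhe41 differed from both control groups. Plin4, Cd36 and Gpat3 lay highest in the high-fat controls and had high-fat MSX below the low-fat control on average. Cd36, a fatty acid translocase, lay at 9.02, 9.68 and 9.42 in the low-fat controls, at 10.40, 10.04 and 10.58 in the high-fat controls and at 9.12, 8.26 and 8.54 in high-fat MSX (−0.73 from the low-fat control, 95% interval −1.29 to −0.17, adjusted p = 0.486), and 1 high-fat MSX array fell within the range of the low-fat controls. Gpat3, an acyltransferase of glycerolipid synthesis, had a difference of −0.44 (adjusted p = 0.276), with −0.37 from its other probe set.

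**Figure D5:**
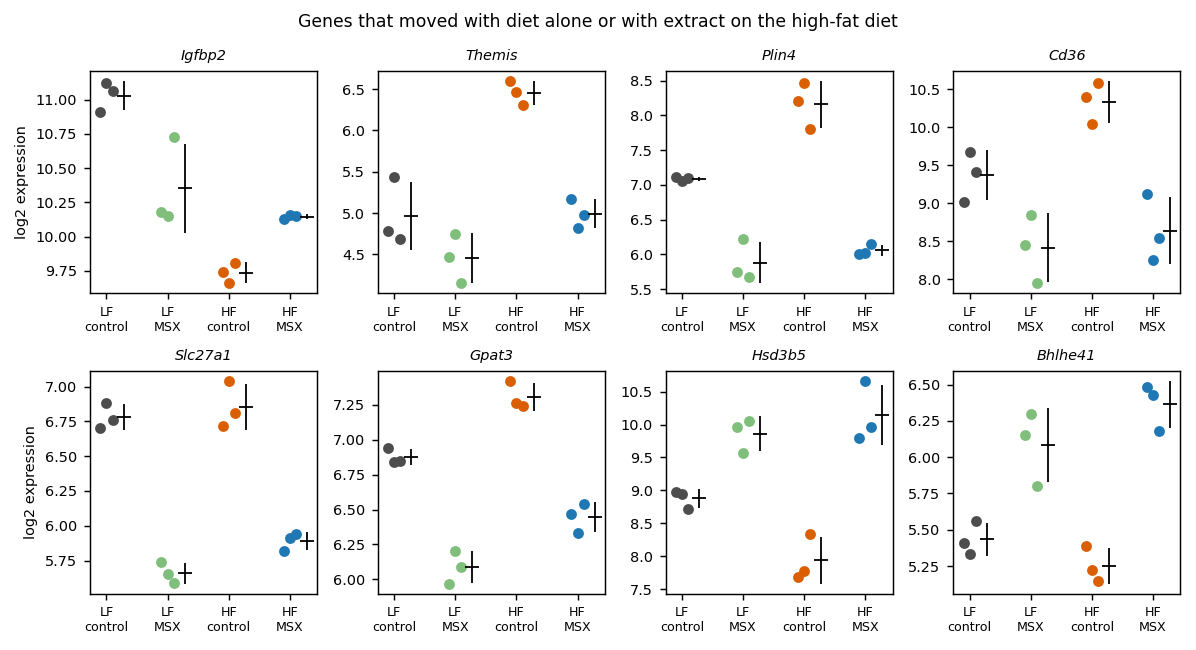
Log2 expression (vertical axis) of 8 of the genes called for the plain high-fat diet or for the extract on it. Cyp51, Sqle and F11, also called for these, are not shown. There is 1 point per array in the 4 groups (LF low-fat, HF high-fat), with the mean ± SD (n = 3) in black. Themis in high-fat MSX sits among the low-fat controls, Igfbp2 sits between both control groups, and Plin4 in high-fat MSX at 6.00 to 6.15 sits below the low-fat controls at 7.05 to 7.11.

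Hsd3b5, the last of the 8 genes called against the high-fat control, encodes a steroid reductase found mainly in male liver. It lay at 8.98, 8.94 and 8.71 in the low-fat controls, at 7.69, 7.78 and 8.34 in the high-fat controls and at 9.80, 10.66 and 9.96 in high-fat MSX. The high-fat MSX arrays lay above all low-fat controls (1.26, 95% interval 0.77 to 1.75, adjusted p = 0.0757). Of 24 measured male-biased liver genes, 0 passed the threshold, 20 had a difference above 0 and the median was 0.28. For 7 of the 24 the high-fat MSX arrays lay above all low-fat controls, against 7.06% of all genes. Without high-fat MSX replicate 2 the median was 0.16 and without low-fat control replicate 1 it was 0.47. Selenbp2, a selenium-binding protein, had the highest difference of the list at 2.19 (adjusted p = 0.308), with high-fat MSX at 9.93, 12.09 and 10.24 and low-fat controls at 8.52, 8.93 and 8.24.

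Nudt7, a peroxisomal coenzyme A hydrolase, had a difference of 1.04 (SE 0.19, adjusted p = 0.0757). Of 20 measured female-biased liver genes 0 passed the threshold, and the median was −0.05. With 1 array left out this median ran from −0.23 to 0.05. The high-fat MSX arrays lay below all low-fat controls for 3 of the 20 and above them for 0. Over all genes these shares were 6.18% and 7.06%. The summed linear signal of the list ran from 9637 to 10254 in the low-fat controls and from 3059 to 8822 in high-fat MSX. Differences ran from −1.35 (Acot3) to 0.35 (Cyp2b13). Cyp2b13, a cytochrome of female mouse liver, lay at 3.61, 3.68 and 3.17 in the low-fat controls, at 6.68, 4.85 and 6.56 in the high-fat controls and at 4.61, 3.57 and 3.34 in high-fat MSX. High-fat MSX and low-fat control thus overlapped for Cyp2b13, with a difference of 0.35 (95% interval −0.56 to 1.26).

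In bile acid and sterol export 0 of 19 measured genes passed the threshold, and the median was 0.16. The high-fat MSX arrays lay above all low-fat controls for 7 of the 19 and below them for 2. Over all genes these shares were 7.06% and 6.18%. Cyp2c70, the hydroxylase that makes muricholic acids in mice, lay at 9.73, 10.28 and 10.33 in the low-fat controls and at 11.14, 12.03 and 11.15 in high-fat MSX (1.33, adjusted p = 0.144). Abcb11, the bile salt export pump, had a difference of 0.61 (adjusted p = 0.185) and Nr0b2, the repressor SHP, one of 0.96 (adjusted p = 0.381), both with no overlap. Cyp8b1, the sterol 12-hydroxylase, had a difference of −0.83 (adjusted p = 0.361) in the other direction. Cyp7a1, the rate-limiting enzyme of bile acid synthesis, had one of −0.29 (95% interval −1.37 to 0.78).

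Of 16 measured genes of fatty acid synthesis and desaturation 0 passed, and the median was 0.11 in high-fat MSX and 0.51 in low-fat MSX, both against the low-fat control. Without high-fat MSX replicate 1 the former was −0.01. The high-fat MSX arrays lay above all low-fat controls for 1 of the 16 and below them for 2. Over all genes these shares were 7.06% and 6.18%. Fasn, fatty acid synthase, lay at 7.92, 7.66 and 8.10 in the low-fat controls and at 8.65, 8.79 and 8.62 in high-fat MSX (0.79, adjusted p = 0.284), against a difference of 1.54 in low-fat MSX. Between high-fat MSX and low-fat MSX 0 of 22180 genes passed (0.0%) by limma, with 1012 (4.56%) at an unadjusted p under 0.05. The test of whether high-fat MSX departed from the sum of the diet change and the low-fat extract change called 0 genes (0.0%) by limma, with 1130 (5.09%) at an unadjusted p under 0.05. Scd1, a desaturase, had a difference of −0.21 and Acaca, acetyl-CoA carboxylase, one of 0.09 in high-fat MSX. Among 9 measured genes of fructose use, glycolysis and glycogen 0 passed, with a median of 0.29 and the highest value at Tkfc, triokinase (0.63, adjusted p = 0.218). For 3 of the 9 the high-fat MSX arrays lay above all low-fat controls, against 7.06% of all genes.

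Of 12 measured genes of gluconeogenesis and insulin signalling 0 passed, 10 had a difference below 0 and the median was −0.25. The high-fat MSX arrays lay below all low-fat controls for 5 of the 12 and above them for 1. Over all genes these shares were 6.18% and 7.06%. Ppargc1a, a coactivator of fasting metabolism, lay at 7.67, 7.86 and 8.06 in the low-fat controls and at 7.43, 6.50 and 6.98 in high-fat MSX (−0.89, adjusted p = 0.222). G6pc, glucose 6-phosphatase, had a difference of −0.62 (adjusted p = 0.529). Of 22 measured genes of amino acid catabolism and the urea cycle 0 passed, 17 were below 0 and the median was −0.19. For 8 of the 22 the high-fat MSX arrays lay below all low-fat controls, and for 1 above them. Got1, an aspartate aminotransferase, lay at 10.90, 11.10 and 10.55 in the low-fat controls, at 9.76, 9.79 and 9.46 in the high-fat controls and at 10.06, 9.83 and 9.62 in high-fat MSX (−1.01, SE 0.20, adjusted p = 0.13).

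Apolipoprotein and lipase regulator genes included both large and null values. Apoa4, an apolipoprotein known to follow liver fat, lay at 12.85, 13.15 and 12.71 in the low-fat controls and at 11.91, 10.53 and 11.43 in high-fat MSX (−1.62, adjusted p = 0.146). Angptl8, an insulin-induced inhibitor of lipoprotein lipase, had a difference of 1.41 (adjusted p = 0.122). Apob (−0.03), Apoa1 (0.02) and Mttp (0.05) differed by 0.05 or less, and 0 of the 16 measured genes of the list passed. For 2 of the 16 the high-fat MSX arrays lay below all low-fat controls, and for 1 above them. Of 20 measured cytochromes and receptors of drug metabolism 0 passed, 16 were below 0 and the median was −0.19. The high-fat MSX arrays lay below all low-fat controls for 5 of the 20 and above them for 1. Over all genes these shares were 6.18% and 7.06%, and 0.0721% passed. Cyp3a11, the main PXR target, lay at 9.76, 9.98 and 10.05 in the low-fat controls and at 9.04, 8.90 and 8.69 in high-fat MSX (−1.05, SE 0.19, adjusted p = 0.0874).

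Inflammation and stress genes gave no call. Over all genes 0.0721% passed and 13.2% separated the groups, so that 0 calls in lists of this size are near the share over all genes. Of 26 measured genes of inflammatory cytokines and signalling 0 passed and 0 separated the groups, and the median was 0.03. Of 23 acute phase genes 0 passed, with a median of 0.19 that was 0.08 without high-fat MSX replicate 3. For 6 of the 23 the high-fat MSX arrays lay above all low-fat controls, where 7.06% of all genes did so. Saa2, serum amyloid A2, had the highest difference at 2.27 (SE 0.93, adjusted p = 0.557), with high-fat MSX at 9.40, 8.87 and 12.37, so that 1 array carried much of it. Of 19 interferon response genes 0 passed, with a median of −0.23 that ran from −0.36 to −0.08 when low-fat control replicate 1 or replicate 3, in this order, was left out. Of 20 genes of NRF2 and conjugation 0 passed (median 0.06), of 19 genes of endoplasmic reticulum and heat shock stress 0 passed (median 0.13) and of 15 immediate early genes 0 passed (median 0.42). The stress median turned to −0.09 without low-fat control replicate 2 and was 0.51 without replicate 3 of that group. The immediate early median fell to 0.13 without high-fat MSX replicate 1. Egr1, an immediate early transcription factor, lay at 5.66, 6.25 and 6.53 in the low-fat controls and at 7.74, 6.93 and 7.33 in high-fat MSX (1.19, adjusted p = 0.33).

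Markers of other cell types were measured beside these results. The median difference was 0.21 for 19 macrophage and Kupffer cell markers, 0.08 for 16 lymphocyte markers, −0.03 for 20 stellate cell and matrix genes, 0.18 for 14 endothelial markers and 0.12 for 9 cholangiocyte markers. It was 0.14 for 6 adipocyte, −0.07 for 9 neutrophil, 0.27 for 7 pancreatic acinar and −0.08 for 2 erythroid markers. These medians moved with single arrays. The macrophage median ran from 0.12 (low-fat control replicate 2 left out) to 0.40 (replicate 3 left out). The lymphocyte median ran from 0.05 (low-fat control replicate 1 left out) to 0.22 (replicate 2 left out). The cholangiocyte median was −0.04 and the acinar median 0.13 without high-fat MSX replicate 1. The stellate median ran from −0.09 to 0.08, the endothelial one from 0.12 to 0.27, the neutrophil one from −0.19 to 0.03, the adipocyte one from 0.07 to 0.21 and the erythroid one from −0.19 to 0.01 over the 6 cases. The summed linear signal of the macrophage markers ran from 2328 to 3441 in the low-fat controls and from 3186 to 3449 in high-fat MSX, and that of the stellate genes from 2994 to 3499 and from 2800 to 3647. The summed lymphocyte signal ran from 364 to 406 and from 390 to 422. Adipoq, adiponectin, a defining adipocyte gene, lay between 2.32 and 2.47 in the low-fat controls and between 2.56 and 2.84 in high-fat MSX, below all array medians. In bulk tissue fewer cells of a type and less RNA per cell cannot be told apart, and the part of cell makeup in the differences above was not tested.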

How the data were processed

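The deposited log2 values summarise probe sets on 12 Affymetrix mouse arrays. The authors used Transcriptome Analysis Console software, as the submitters' processing notes name it. Version and normalization were not given in the sources used here, so that the deposited values were taken unchanged. RNA was extracted with Trizol, per the labels' protocols. The number of arrays limits the precision.

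Of 41345 probe sets, 23521 had 1 gene symbol in the platform annotation, 1814 several and 16010 none listed. Entrez identifiers of 23328 matched the GRCm38.p6 gene table, used for names and gene types, and 0 symbols changed. The probe set of highest mean was kept per gene, giving 22180 genes (1082 with more than 1 probe set), with no filter on dim genes. Group means were fitted to all 12 arrays with limma 3.58.1 in R 4.3.3 (lmFit, eBayes, two-sided, 8 residual and 5.18 prior degrees of freedom), and p-values were adjusted by Benjamini-Hochberg over all genes, with a threshold of 0.05. SE is the moderated standard error, and 95% intervals are not adjusted. The fit was tested on simulated data.

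Named genes were the called genes with groups that do not overlap, filled to 12 per direction by lowest p, the genes called for the plain high-fat diet or for the extract on it, and the 3 genes of lowest p in each of 33 lists. A part of them is printed. The 33 lists (23 of pathways, 10 of cell type markers) hold 574 genes, of which 517 were measured. Members, lists and rules were chosen with earlier results of these data known. Alternatives were a fit on 6 arrays, another variance prior, a filter on dim genes, 2 normalizations, the mean of probe sets, array weights, the replicate number as a block and leaving out each of the 6 arrays. Same-numbered arrays of the compared groups did not deviate together (correlations of 0.017, −0.126 and −0.08), and the labels give the numbers no further meaning. The p-values rest on the spread between arrays within the 4 groups, moderated over all genes. The labels do not say whether an array is 1 animal, so that this spread may not be that between animals.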

Additional observations from a re-analysis of the deposited data

Results flagged for a closer look

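Igfbp2 moved in opposite directions with the extract on the 2 diets in every array. With the extract it was higher by 0.41 on the high-fat diet, where high-fat MSX lay at 10.13 to 10.16 and high-fat control at 9.66 to 9.81. On the low-fat diet it was lower by −0.68, where low-fat MSX lay at 10.15 to 10.73 and low-fat control at 10.91 to 11.12. The difference between both extract changes was 1.09 (SE 0.21) and did not pass the threshold over all genes (limma, adjusted p = 0.664). Only named genes were searched for this pattern. Igfbp2 was called for the plain high-fat diet, and the control arrays of that call also enter this difference, so that it is not independent of the call.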

How the results depend on the processing

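The count of genes past the threshold was 16 as reported, 49 with an intensity trend and robust variance prior and 38 with dim genes left out. The 49 held all 16 genes and the 38 held 15 of them. It ran from 3 to 8 with 1 array left out. With the replicate block, the number as a term in the fit, it was 11, all among the 16, and Aox3, Bhlhe41, F11, Gm16157 and Mir1946b lost their calls. The numbers were not found to pair the arrays, and 0 of 6 arrays correlated best with their own number. The counts of 15 to 24 under the other 5 settings lay within 1.5 times of 16, but the fit on the 6 compared arrays, with 23 genes, held 13 of the 16. Bhlhe41, Gm16157 and Lamb3 lost their calls there, Lamb3 also under median centring and Sort1 with the mean of probe sets. The same model fitted to and adjusted over all 41345 probe sets, in place of the 22180 genes, called 3 probe sets. None of the 16010 probe sets with no listed gene passed in that fit. The Themis difference of 0.02 ran from −0.12 to 0.26 with 1 array left out and turned sign in 3 cases: −0.07 without low-fat control replicate 1, −0.12 without low-fat control replicate 3 and −0.07 without high-fat MSX replicate 1, where the cause was not tested. The test of a departure from the sum of the diet change and the extract change on the low-fat diet called 0 genes (limma, 1130 at an unadjusted p under 0.05). It called from 0 to 1 with 1 array left out, the 1 being Cyp2c39 without high-fat MSX replicate 1 (−2.04, adjusted p = 0.04, against −1.65 with all arrays), and 0 under the other settings. Of 462 list medians recomputed, 454 moved by less than the spread between arrays. Signal over background was not analysed here, so that no limit is given for dim probe sets such as that of Mir1946b.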
